A study of Homo sapiens with 72 samples.

Results

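The 40 genes described here encode the inflammatory cytokines, chemokines and cytokine receptors and the NF-kB subunits, regulators and response genes of a list of symbols, and they were taken by symbol from the 26485 genes of the mRNA count tables. TUT4 and TUT7 are terminal uridylyl transferases that add uridines to RNA 3′ ends, and the study disrupted both in 2 human cancer cell lines to learn which genes and microRNAs depend on them. Poly(A) RNA was sequenced in 36 libraries that fall into 9 groups of 4, and small RNA in 36 matching libraries. DU145 is a prostate cancer line that lacks the RNA-binding protein LIN28A, whereas IGROV1 is an ovarian cancer line that expresses it.

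Each line was represented by its wild-type (WT) parental cells (TUT4+, TUT7+) and by 2 double-mutant clones (TUT4-, TUT7-) made with a Cas9 nickase, named mutant 1 and mutant 2 below. DU145 WT cells and both clones also received LIN28A from a CMV-driven lentivirus and were selected with puromycin (LIN28A-OE DU145), and the LIN28A-OE mutants carry the clone numbers of the DU145 mutants. The 4 libraries of a group came from successive passages. WT DU145 cells reached passage 160, whereas DU145 mutant 1 was at passages 9 to 12 and mutant 2 at 8 to 11. WT IGROV1 cells were at passages 6 to 9, mutant 1 at 2 to 5 and mutant 2 at 3 to 6, and all LIN28A-OE groups were at passages 1 to 4. The clone name in the labels ends in a number that runs on with the replicate for DU145 mutant 2 and both IGROV1 mutants, so whether their libraries are passages of 1 clone or separate subclones cannot be told from the labels. The tests therefore measure the spread between such libraries, not between independently made clones, and a mutant's difference from WT cannot be told apart from a property of that clone, of cloning itself or of the passage number.

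NF-kB is a family of dimeric transcription factors that inhibitors such as NFKBIA (IκBα) hold in the cytoplasm until a cytokine or Toll-like receptor activates the IκB kinase. Once in the nucleus, the dimers induce chemokines, cytokines and their own inhibitors, which closes a negative feedback loop. Carcinoma cells often make such ligands themselves, with IL-6 family cytokines signalling through IL6ST to STAT3 and CXC chemokines attracting neutrophils.

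The mRNA libraries held 7195437 to 25054688 counts assigned to genes, and levels are given as CPM, a gene's count per 1000000 of that total, which can be compared between libraries for 1 gene but not between genes of different length. TUT4 mRNA (ZCCHC11 in the tables) averaged 26.6 and 27.1 CPM in the IGROV1 mutants against 78.0 in WT, and 12.02 in DU145 mutant 1 against 56.7 in WT. In DU145 mutant 2 it averaged 41.7 CPM, with a false discovery rate (FDR) of 0.0295 that missed the threshold of 0.01 used throughout. LIN28A-OE WT held 945, 1066, 1003 and 753 TUT4 counts, in libraries of 18068012, 17211830, 13616429 and 9867217 counts. LIN28A-OE mutant 2 held 1157, 958, 864 and 598, in libraries of 19402406, 16341015, 13283898 and 9892140. Relative to these totals the 2 groups overlapped. LIN28A-OE mutant 1 held fewer TUT4 counts, at 263, 239, 394 and 322. TUT7 mRNA (ZCCHC6) was called lower in all 6 mutant groups. Whole-gene counts cannot show a small edit, so they check the labels only in part. LIN28A averaged 0.115 CPM in WT DU145 but 69.6, 379 and 262 CPM in LIN28A-OE WT, mutant 1 and mutant 2, so the LIN28A-OE mutants carried more LIN28A mRNA than their WT control (log2 differences of 2.41 and 1.76), and its part in the LIN28A-OE results was not tested. Replicate 4 of IGROV1 mutant 1 deviated most from its group (a root mean square log2 deviation of 0.551 over 11973 genes), followed by LIN28A-OE WT replicate 1 (0.44) and IGROV1 mutant 2 replicate 4 (0.412), against 0.0926 in the library nearest its group. Of the leukocyte markers CD3E had no count in any library and PTPRC reached at most 0.343 CPM, and the 5 leukocyte markers summed to between 0.104 and 13.1 CPM in a library.

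The WT lines differed widely in the inflammatory genes they expressed. Of the 20 members with enough counts within each line, 12 were lower in WT IGROV1 than in WT DU145 and 2 were higher at an FDR under 0.01 (edgeR quasi-likelihood test), 70% against 56.8% of the 12991 genes tested within both lines. A further 9 members passed the low-count filter through their DU145 counts and 1, TNF, through its IGROV1 counts, so the calls of these (60% of all 15556 genes tested over both lines were called) are a description only. DU145 cells held the neutrophil chemokine CXCL8 at 24.7 ± 6.19 CPM (SD, n = 4), the adhesion molecule ICAM1 at 211 ± 22.8 CPM and the IL-6 family cytokine IL11 at 30.9 ± 5.19 CPM. The same genes were near 0 in IGROV1 cells, at 0.0795 CPM for CXCL8, 0.098 CPM for ICAM1 and 0.0129 CPM for IL11. IL24, an IL-10 family cytokine, had no count in WT IGROV1 and was at least 109-fold lower there. The 3 members that were higher in IGROV1 were IL18, the inflammasome-processed cytokine of the IL-1 family (93.5 against 51.9 CPM), NFKBIZ, a nuclear IκB that promotes secondary response genes (48.1 against 3.31 CPM), and TNF, which had no count in WT DU145 and was at least 75.9-fold higher in IGROV1. The comparisons of mutant with WT cells below thus start from different baselines, and the 9 members not tested within IGROV1 include CXCL1, CXCL2, CXCL5, CXCL8, CCL5 and ICAM1.

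Each mutant was next compared with its own WT. In DU145 mutant 1, 12 of 29 members tested fell and 4 rose, 55.2% of those tested against 25.9% of all genes, whereas in mutant 2 only 2 fell and 3 rose, 17.2% against 23.9% of all genes. In LIN28A-OE DU145 the counts were 9 lower and 4 higher in mutant 1 (44.8% against 28%) and 4 lower and 1 higher in mutant 2 (17.2% against 23.8%). In IGROV1, 8 of 21 members tested fell and none rose in mutant 1 (38.1% against 27.6% of all genes), and 8 fell and 2 rose in mutant 2 (47.6% against 27.4%). The members' median log2 difference was -0.57 and -0.41 in the IGROV1 mutants and -0.42 and -0.12 in the DU145 mutants, where the medians over all genes lay between -0.02 and 0.01. The median in DU145 mutant 2 is the same whether CXCL5, which had no count there, is entered at its fitted value or at its bound. In each line the comparisons of mutant 1 and mutant 2 share their 4 WT libraries.

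**Figure D1:**
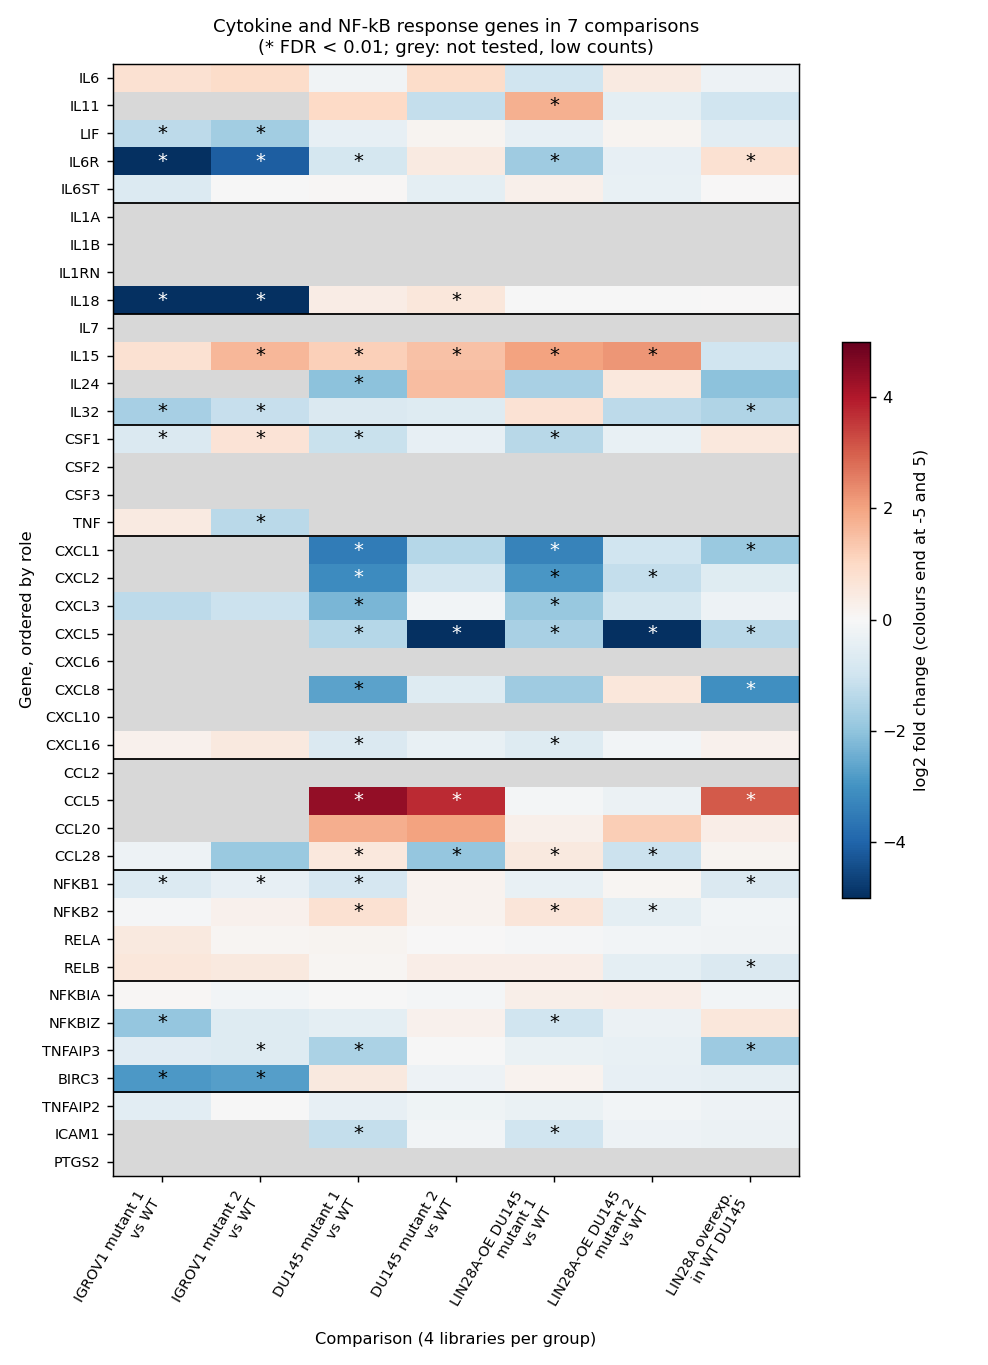
Log2 differences of the 40 members, grouped by role, in the 6 comparisons of a mutant with its WT and in the comparison of LIN28A-OE WT with WT DU145. Colours end at 5 in either direction, an asterisk marks an FDR under 0.01 and grey marks members with too few counts to be tested; the 6 CXC chemokines tested are lower in DU145 mutant 1, and IL18 and IL6R have the largest decreases in IGROV1.

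In IGROV1, 6 members fell in both mutants and none rose in both. Of all genes tested, 15.4% were called the same way in both mutants, 8.89% lower and 6.55% higher. These were the cytokines IL18, LIF and IL32, the receptor IL6R, the NF-kB subunit NFKB1 and the ubiquitin ligase BIRC3 (cIAP2), itself an NF-kB target. IL18 (hg38 chr11:112143253-112164096, minus strand) measured 76.2, 101, 95.3 and 101 CPM in the 4 WT libraries, 0.743, 0.794, 0.516 and 0.259 in mutant 1 and 0.303, 0.200, 0.527 and 0.461 in mutant 2. No mutant library reached 1 CPM, and every WT library was above 75 CPM. The fitted level was 141-fold lower in mutant 1 (log2 -7.14 ± 0.25, SE, FDR = 4.28e-10) and 269-fold lower in mutant 2 (-8.07 ± 0.26, FDR = 2.62e-10). In a bulk library fewer expressing cells and less RNA per cell cannot be told apart.

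IL6R, the ligand-binding chain of the IL-6 receptor, measured 32.1, 42.8, 46.6 and 35.0 CPM in WT IGROV1, 0.457, 0.318, 0.103 and 0.647 in mutant 1 and 2.82, 2.87, 2.03 and 1.32 in mutant 2. All 3 groups stood apart, with mutant 1 the lowest. It was 99.7-fold lower in mutant 1 (log2 -6.64 ± 0.33, FDR = 7.63e-09) and 17.3-fold lower in mutant 2 (-4.11 ± 0.25, FDR = 4.42e-08), and the 2 clones differed from each other by -2.52 ± 0.36 (FDR = 0.000206). IL6ST, the signalling chain shared by the family, had log2 differences of -0.68 ± 0.40 (FDR = 0.201) and -0.03 ± 0.40 (FDR = 0.959). Replicate 4 of mutant 1 held IL6ST at 12.03 CPM, against 65.5 to 77.3 CPM in the other libraries of that clone.

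BIRC3 measured 21.7, 16.2, 15.6 and 16.9 CPM in WT, 2.46, 2.75, 3.10 and 0.647 in mutant 1 and 2.32, 3.63, 3.24 and 1.38 in mutant 2. Replicate 4 was the lowest library of both mutants, and WT and mutant libraries did not overlap. The log2 difference of BIRC3 was -2.87 ± 0.31 in mutant 1 (FDR = 9.29e-06) and -2.76 ± 0.30 in mutant 2 (FDR = 8.94e-06). Without replicate 4 of both mutants the differences were -2.68 and -2.58.

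LIF, an IL-6 family cytokine, measured 31.7, 32.9, 28.5 and 31.6 CPM in WT, 9.37, 12.1, 14.1 and 13.3 in mutant 1 and 9.94, 9.14, 9.56 and 9.74 in mutant 2. Every mutant library lay below 15 CPM and below every WT library, with log2 differences of -1.29 ± 0.14 (FDR = 1.01e-05) and -1.73 ± 0.14 (FDR = 6.67e-07). IL32, a proinflammatory cytokine, measured 7.51, 6.34, 6.65 and 6.63 CPM in WT, 1.31, 1.54, 2.68 and 3.23 in mutant 1 and 2.32, 2.67, 3.01 and 4.41 in mutant 2. It fell by 1.66 ± 0.30 (FDR = 0.00062) and by 1.16 ± 0.27 (FDR = 0.00419) with no overlap between WT and mutant libraries. NFKB1, which encodes the p105 precursor of p50, measured 60.1, 62.1, 57.8 and 56.2 CPM in WT, 33.3, 39.3, 38.4 and 31.2 in mutant 1 and 50.4, 48.1, 46.5 and 36.6 in mutant 2. Its smaller decreases were -0.67 ± 0.11 (FDR = 0.000223) and -0.41 ± 0.10 (FDR = 0.00713). In mutant 2 the calls of IL32 and NFKB1 were lost when any of several single libraries was left out (FDR up to 0.0167 and 0.0222). For both genes these included WT replicates 1, 3 and 4 and mutant 2 replicates 2 and 3. The NFKB1 call in mutant 2 was also lost with total counts in place of TMM scaling (FDR = 0.0212). Testing without the low-count filter ended it too (FDR = 0.0135).

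The remaining calls in IGROV1 were made in 1 clone or in opposite directions, and these genes were singled out after their values were seen. Tested directly, the clones differed in IL6R, CSF1, TNF and NFKBIZ, 4 of 21 members (19% against 16.5% of all genes), with 1 higher and 3 lower in mutant 1 (7.38% and 9.08% of all genes). CSF1, the macrophage colony-stimulating factor, measured 38.2, 31.4, 36.3 and 37.8 CPM in WT, fell to 16.97, 23.1, 21.8 and 22.3 in mutant 1 and rose to 63.9, 55.4, 62.7 and 50.6 in mutant 2. The 3 groups did not overlap, and the clones differed by -1.38 ± 0.13 on the log2 scale (FDR = 7.63e-06). TNF measured 6.37, 4.68, 6.52 and 5.90 CPM in WT and 5.77, 7.62, 12.5 and 4.92 in mutant 1, but only 1.66, 2.59, 3.46 and 1.71 in mutant 2 (log2 -1.36 ± 0.29 against WT, FDR = 0.00231). NFKBIZ fell in mutant 1 (-1.92 ± 0.21, FDR = 9.07e-06), where replicate 4 was the lowest at 6.34 CPM. In mutant 2 TNFAIP3, the deubiquitinase A20 that terminates NF-kB signalling, fell by 0.65 ± 0.15 (FDR = 0.0046) and IL15 rose by 1.67 ± 0.41 (FDR = 0.00532), and both calls were lost without any of several single libraries (FDR up to 0.0172 and 0.0244), WT replicates 1, 3 and 4 and mutant 2 replicate 2 among them. Neither differed between the clones at the threshold (0.08 ± 0.16, FDR = 0.757, and -0.91 ± 0.40, FDR = 0.113). Without replicate 4 of both mutants 9 of 22 members differed between the clones, 40.9% against 32.3% of all genes.

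**Figure D2:**
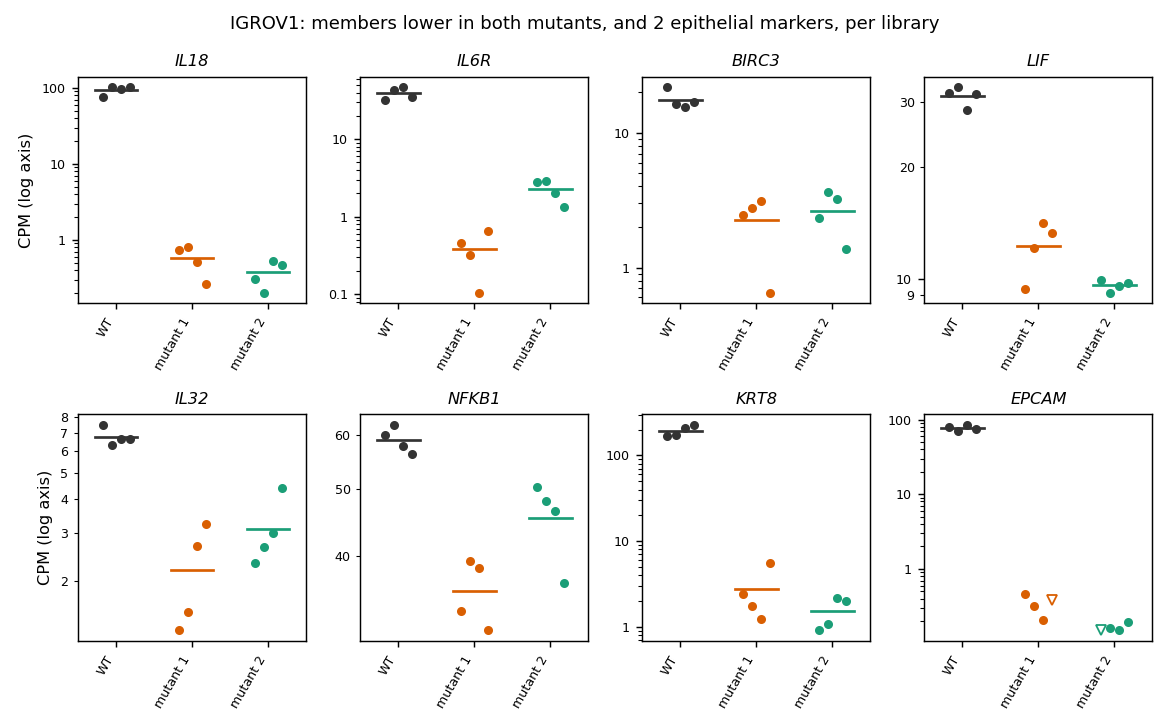
CPM on a log axis of the 6 members called lower in both IGROV1 mutants and of the epithelial markers KRT8 and EPCAM, in the 4 libraries each of WT, mutant 1 and mutant 2; bars are means of 4 libraries and open triangles mark a count of 0, drawn at the level of 3 counts. IL18 and IL6R drop by more than 10-fold, as do both epithelial markers, while NFKB1 stays between 31.2 and 62.1 CPM.

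Some markers of epithelial identity fell with these genes in IGROV1. KRT8, a keratin of simple epithelia, averaged 195 CPM in WT and 2.74 and 1.54 CPM in the mutants, and the adhesion protein EPCAM averaged 77.4, 0.245 and 0.127 CPM. Of the 5 epithelial markers, 3 were called lower in mutant 1 and 5 in mutant 2, and none was at 0 over a whole group. Their summed level ranged from 1118 to 1242 CPM in WT, from 709.9 to 1204 in mutant 1 and from 324 to 380.3 in mutant 2. Of the 3 endothelial markers, PECAM1 was lower in both mutants (1.27 CPM in WT, 0.0666 and 0.0126 in the mutants) and CDH5 in mutant 1 (74.9 against 14.7 CPM), and the list summed to 67.9 to 109 CPM in WT, 14.98 to 31.2 in mutant 1 and 52.6 to 96.6 in mutant 2. The 5 mesenchymal or fibroblast markers summed to 1013 to 1237 CPM in WT, 678 to 781 in mutant 1 and 1341 to 1431 in mutant 2. Their sums thus lay on opposite sides of WT in the 2 clones. The part of all these markers in the fall of IL18, IL6R and BIRC3 was not tested.

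In DU145 cells the CXC chemokines made up 6 of the 16 calls in mutant 1. All 6 CXC members tested fell in mutant 1, with a median log2 difference of -2.48 against 0.01 over all genes, while in mutant 2 only CXCL5 was called. CXCL1, CXCL2, CXCL3, CXCL5, CXCL6 and CXCL8 lie together on chromosome 4, within hg38 chr4:73740519-74099196, and encode ligands of the neutrophil receptors CXCR1 and CXCR2. The promoters of CXCL1, CXCL2, CXCL3 and CXCL5, which all fell in mutant 1, are shown because each holds the κB consensus, the DNA sequence that NF-kB binds. The windows run from 250 bases before to 50 bases after the RefSeq transcript start (GRCh38.p14) and are written 5′ to 3′ on the gene's own strand, with the κB match in capitals.
CXCL1 promoter, chr4:73869143-73869442, + strand: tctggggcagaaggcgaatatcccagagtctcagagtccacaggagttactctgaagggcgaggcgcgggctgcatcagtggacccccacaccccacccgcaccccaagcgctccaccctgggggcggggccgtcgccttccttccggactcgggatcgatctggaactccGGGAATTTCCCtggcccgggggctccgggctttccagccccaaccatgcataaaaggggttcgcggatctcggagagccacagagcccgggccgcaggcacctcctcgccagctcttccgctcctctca
CXCL2 promoter, chr4:74099146-74099445, - strand: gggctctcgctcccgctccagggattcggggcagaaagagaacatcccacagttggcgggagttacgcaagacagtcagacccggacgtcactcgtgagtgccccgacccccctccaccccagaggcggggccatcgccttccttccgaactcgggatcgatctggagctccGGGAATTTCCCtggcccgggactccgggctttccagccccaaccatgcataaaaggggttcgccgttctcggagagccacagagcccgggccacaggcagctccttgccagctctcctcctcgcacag
CXCL3 promoter, chr4:74038640-74038939, - strand: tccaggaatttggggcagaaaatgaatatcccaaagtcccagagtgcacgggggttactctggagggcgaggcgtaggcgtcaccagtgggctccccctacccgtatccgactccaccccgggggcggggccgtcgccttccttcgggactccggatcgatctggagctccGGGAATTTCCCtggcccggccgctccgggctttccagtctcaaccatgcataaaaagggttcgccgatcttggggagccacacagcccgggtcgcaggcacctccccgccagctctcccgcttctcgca
CXCL5 promoter, chr4:73998628-73998927, - strand: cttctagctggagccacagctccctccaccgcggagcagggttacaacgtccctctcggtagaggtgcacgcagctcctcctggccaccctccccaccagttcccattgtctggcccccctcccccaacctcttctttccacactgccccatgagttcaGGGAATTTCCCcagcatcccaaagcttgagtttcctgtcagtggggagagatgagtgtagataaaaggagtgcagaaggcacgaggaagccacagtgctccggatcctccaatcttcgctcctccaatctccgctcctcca
All 4 hold the same GGGAATTTCCC element, read as 2 overlapping κB matches that begin 79 and 78 bases before the start in CXCL1 and CXCL3, 78 and 77 in CXCL2 and 91 and 90 in CXCL5. Of the 27305 genes with a window, 7.09% had a κB match on either strand in at least 1 window, as did 15 of the 30 members with a window (50%). Besides the genes shown, these were NFKB1 and TNFAIP3, which fell in DU145 mutant 1, and NFKB2, which rose there. IL6, IL32, CCL20, NFKBIA, NFKBIZ and BIRC3 had a match too and were not called in that mutant. CXCL6, which holds the same GGGAATTTCCC, and CXCL10 had a match but too few counts to be tested. CXCL8, ICAM1, IL6R and IL24, which fell in mutant 1 as well, and CCL28, which rose there, had no match in their windows. IL11, IL6ST, RELA and TNFAIP2 had no match either and were not called there. Whether the motif goes with the calls was not tested. The search allowed no deviation from GGGRNWYYCC, where R is A or G, N any base, W A or T and Y C or T. The CXCL8 window holds TGGAATTTCC, which departs from that pattern at the first base only. It also held the AP-1 motif TGANTCA, which 9.37% of all genes with a window had. A match is a sequence description and does not show binding in these cells.

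CXCL1 measured 5.01, 4.36, 3.40 and 2.12 CPM in WT DU145, 0.369, 0.269, 0.355 and 0.278 in mutant 1 and 1.92, 1.25, 1.11 and 1.74 in mutant 2. CXCL2 measured 9.82, 13.7, 12.6 and 7.54 CPM in WT, 1.66, 0.896, 1.42 and 0.834 in mutant 1 and 8.12, 4.63, 5.49 and 6.87 in mutant 2. Mutant 1 was below every other library for both genes, at 11.3-fold and 8.77-fold under WT (log2 -3.50 ± 0.59, FDR = 5.6e-05, and -3.13 ± 0.37, FDR = 5.92e-07). In mutant 2 CXCL1 was below every WT library and CXCL2 overlapped WT in 1 library, and neither difference passed the threshold (-1.44 ± 0.46, FDR = 0.0161, and -0.92 ± 0.31, FDR = 0.0223).

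CXCL8 measured 31.1, 28.3, 21.9 and 17.4 CPM in WT DU145, 3.97, 4.21, 4.09 and 2.92 in mutant 1 and 20.4, 17.8, 12.97 and 19.0 in mutant 2. Mutant 1 was 6.39-fold lower than WT (log2 -2.68 ± 0.49, FDR = 0.000199), whereas mutant 2 overlapped WT (-0.63 ± 0.43, FDR = 0.276). CXCL3 measured 1.43, 1.56, 1.93 and 0.471 CPM in WT, 0.277, 0.269, 0.355 and 0.139 in mutant 1 and 1.82, 1.00, 1.19 and 1.45 in mutant 2, and fell in mutant 1 only (-2.29 ± 0.48, FDR = 0.000617). The clones differed from each other for CXCL2 (-2.21 ± 0.38, FDR = 4.5e-05), CXCL3 (-2.16 ± 0.48, FDR = 0.000718) and CXCL8 (-2.04 ± 0.49, FDR = 0.00162). CXCL16, a membrane-anchored chemokine encoded on chromosome 17, fell by 0.73 ± 0.16 in mutant 1 (FDR = 0.00122).

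CXCL5 was lower in mutant 2 than in mutant 1, by at least 47.5-fold (FDR = 3.44e-12). It measured 9.92, 10.3, 9.29 and 8.83 CPM in WT DU145 and 3.97, 2.78, 3.64 and 3.89 in mutant 1, and had no count in any of the 4 libraries of mutant 2, against 372 counts over the WT libraries. It fell by 1.41 ± 0.16 on the log2 scale in mutant 1 (FDR = 9.18e-07) and was at least 129-fold lower in mutant 2 (FDR = 1.84e-13, with a floor of 3 counts over the group). CXCL6, its neighbour, had too few counts to be tested, with 0.353 to 1.02 CPM in WT, 0.534 to 0.875 in mutant 2 and counts in only 1 library of mutant 1.

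Only 2 members rose in both DU145 mutants, the T cell chemoattractant CCL5 and the lymphocyte growth factor IL15, and with CXCL5 they made 3 members called the same way in both, where 6.48% of all genes were. CCL5 measured 0.409, 0.208, 0.184 and 0.236 CPM in WT, 6.0002, 7.89, 5.24 and 3.06 in mutant 1 and 4.38, 5.13, 3.66 and 2.42 in mutant 2. Every mutant library exceeded every WT library, and replicate 4 was the lowest of both mutants. The increases were 21.2-fold (log2 4.41 ± 0.38, FDR = 4.68e-09) and 13.2-fold (3.72 ± 0.40, FDR = 9.6e-08). IL15 measured 1.94, 1.77, 2.48 and 1.53 CPM in WT, 3.23, 5.65, 4.71 and 4.03 in mutant 1 and 7.59, 6.63, 5.57 and 3.87 in mutant 2. The groups of mutants again did not overlap WT (1.20 ± 0.28, FDR = 0.00143, and 1.46 ± 0.27, FDR = 0.000165).

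**Figure D3:**
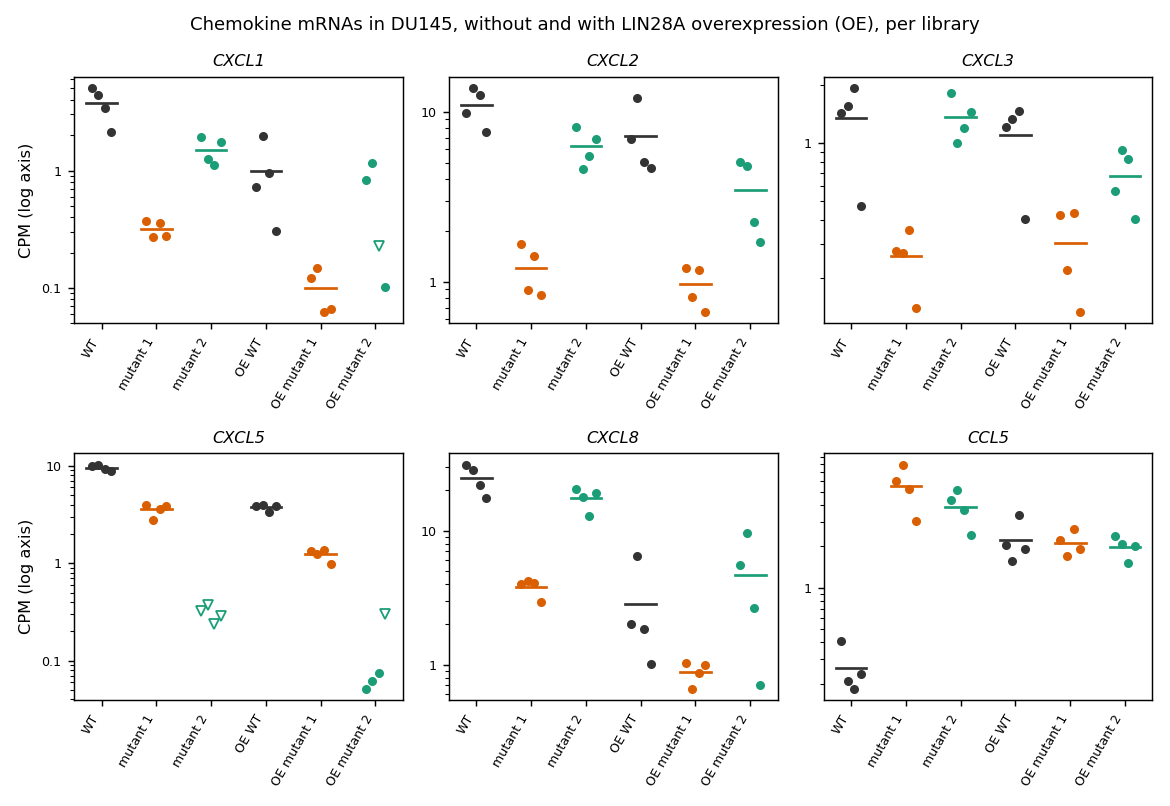
CPM on a log axis of the chemokines CXCL1, CXCL2, CXCL3, CXCL5, CXCL8 and CCL5 in the 4 libraries of each of the 6 DU145 groups; bars are means of 4 libraries and open triangles mark a count of 0, drawn at the level of 3 counts. CXCL5 is at 0 in all mutant 2 libraries, and CCL5 is low only in WT cells without LIN28A.

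The other members called in DU145 mutant 1 spanned several roles. IL6R (38.8 ± 5.21 to 20.8 ± 1.97 CPM), CSF1 (263 ± 54.4 to 121 ± 14.8 CPM), ICAM1 (211 ± 22.8 to 91.7 ± 9.18 CPM) and TNFAIP3 (26.9 ± 6.99 to 8.93 ± 0.894 CPM) all fell, with n = 4 in each group. IL24 fell by 2.03 ± 0.58 (FDR = 0.00827) and the mucosal chemokine CCL28 rose by 0.51 ± 0.15 (FDR = 0.00985). Leaving out any 1 of the WT or mutant 1 libraries ended the call of IL24 (FDR 0.0119 to 0.0268), and leaving out any 1 but mutant 1 replicate 2 ended that of CCL28 (FDR 0.016 to 0.035). In mutant 2 the cytokine IL18 rose by 0.55 ± 0.14 (FDR = 0.00356), a call that was lost without WT replicate 1 or 3 (FDR = 0.0115 and 0.0154). EPCAM and the cadherin CDH1 were lower in mutant 1 (11.5 against 54.2 CPM and 41.6 against 85.2 CPM) but were not called in mutant 2, while PECAM1 was higher in both mutants (1.30 and 1.88 against 0.101 CPM), and the part of these markers in the chemokine differences was not tested. The 5 epithelial markers together were not at a lower summed level in mutant 1. They ranged there from 1757 to 2347 CPM, against 1442 to 2522 in WT. In mutant 2 their sum was above every WT library, from 2718 to 3573 CPM.

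The DU145 clones differed in 14 of 29 members tested, 48.3% against 35.5% of all genes, with 10 lower and 4 higher in mutant 1. The genes that follow were singled out after their values were seen. CCL28 measured 9.10, 9.97, 8.83 and 9.78 CPM in WT, 14.95, 11.4, 13.9 and 12.8 in mutant 1 and 2.88, 2.001, 2.94 and 2.90 in mutant 2, so that the groups did not overlap and lay on opposite sides of WT (clones apart by 2.43 ± 0.17, FDR = 4.85e-11). IL11 measured 24.7, 33.6, 28.9 and 36.4 CPM in WT, 59.3, 68.6, 49.0 and 64.6 in mutant 1 and 18.6, 13.9, 9.39 and 16.8 in mutant 2. Neither IL11 difference from WT passed the threshold (0.99 ± 0.36, FDR = 0.036, and -1.20 ± 0.38, FDR = 0.0172), although the clones differed by 2.19 ± 0.38 (FDR = 7.49e-05). IL24 was at 0.923, 1.61, 0.888 and 0.973 CPM in mutant 1 and at 17.4, 11.9, 7.72 and 22.3 in mutant 2, with WT between them at 4.09, 5.92, 4.23 and 4.24.

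In LIN28A-OE DU145, where WT cells carry LIN28A and the mutants carry more of it, 3 members were called the same way in both mutants, against 6.28% of all genes. IL15 rose in both, and CXCL2 and CXCL5 fell in both. IL15 measured 0.720, 0.813, 1.18 and 1.32 CPM in LIN28A-OE WT, 3.02, 2.35, 5.46 and 5.56 in mutant 1 and 4.79, 5.32, 5.12 and 5.16 in mutant 2. The mutants lay above every WT library, by 4.08-fold (2.03 ± 0.28, FDR = 3.69e-06) and 4.66-fold (2.22 ± 0.28, FDR = 1.05e-06).

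CXCL5 measured 3.87, 3.95, 3.38 and 3.85 CPM in LIN28A-OE WT, 1.33, 1.25, 1.36 and 0.992 in mutant 1 and 0.0515, 0.0612, 0.0753 and 0 in mutant 2. The 3 groups stood apart in the same order as without LIN28A. It fell by 1.64 ± 0.18 in mutant 1 (FDR = 3.33e-07), and mutant 2 held only 3 counts against 222 in WT, a ratio of 74.2 with an exact binomial 95% interval of 25.1 to 363 that covers counting error only (FDR = 1.6e-12). CXCL2 measured 6.92, 11.97, 5.07 and 4.66 CPM in LIN28A-OE WT, 1.21, 0.809, 1.18 and 0.661 in mutant 1 and 5.05, 4.77, 2.26 and 1.72 in mutant 2. Mutant 1 was below all WT libraries (-2.93 ± 0.36, FDR = 7.55e-07), while 2 libraries of mutant 2 reached into the WT range (-1.18 ± 0.31, FDR = 0.0046). The call in mutant 2 was lost without WT replicate 2 (FDR = 0.0448) or without mutant 2 replicate 3 or 4 (FDR = 0.027 and 0.0239), and with total counts in place of TMM scaling (FDR = 0.0127).

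Several further members were called in 1 mutant of the LIN28A-OE cells. CXCL1 (-3.33 ± 0.74, FDR = 0.000921), CXCL3 (-1.90 ± 0.42, FDR = 0.000768), IL6R (-1.79 ± 0.17, FDR = 1.43e-08), CSF1 (-1.38 ± 0.16, FDR = 4.43e-07) and ICAM1 (-1.01 ± 0.13, FDR = 1.94e-06) fell in mutant 1 and were not called in mutant 2. Tested directly, the clones differed for IL6R (-1.36 ± 0.17, FDR = 4.15e-07), CSF1 (FDR = 1.65e-05) and ICAM1 (-0.74 ± 0.13, FDR = 5.41e-05), but not at the threshold for CXCL1 (-2.35 ± 0.81, FDR = 0.0181) or CXCL3 (-1.03 ± 0.45, FDR = 0.0577). IL11 measured 22.0, 23.8, 5.80 and 8.82 CPM in LIN28A-OE WT, 57.4, 52.9, 54.0 and 53.8 in mutant 1 and 9.48, 23.5, 7.45 and 8.29 in mutant 2. It rose in mutant 1 by 1.79 ± 0.37 (FDR = 0.000608), whereas mutant 2 lay within the wide WT range. CCL28 was again higher in mutant 1 (0.50 ± 0.15, FDR = 0.00838) and lower in mutant 2 (-1.09 ± 0.15, FDR = 5.29e-06) than in WT. The smaller calls of CXCL16, CCL28 and NFKBIZ in mutant 1 were each lost without LIN28A-OE WT replicate 3 or mutant 1 replicate 2, and without some other single libraries (FDR 0.0103 to 0.0293). The CCL28 calls in mutant 1 were also lost when all 36 libraries were fitted together, with LIN28A (FDR = 0.107) and without it (FDR = 0.122). Between the LIN28A-OE clones 13 of 29 members differed, 44.8% against 41.5% of all genes.

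**Figure D4:**
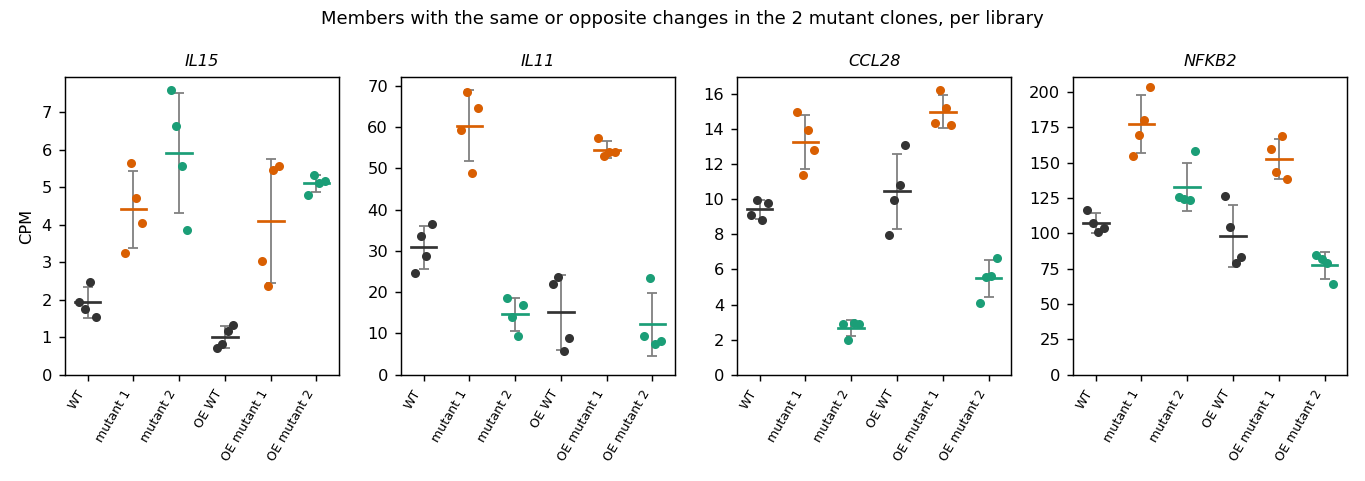
CPM on a linear axis of IL15, IL11, CCL28 and NFKB2 in the 4 libraries of each of the 6 DU145 groups, with the mean and SD of 4 libraries. IL15 lies above WT in both mutants. The means of IL11, CCL28 and NFKB2 are higher in mutant 1 than in mutant 2 with and without LIN28A. Without LIN28A the NFKB2 libraries of the 2 mutants overlap.

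In LIN28A-OE WT cells 9 of 29 members differed from WT DU145, 31% against 10.2% of all genes. CCL5 and IL6R rose, where 6.98% of all genes did, and CXCL8, CXCL1, TNFAIP3, IL32, CXCL5, RELB and NFKB1 fell, where 3.19% of all genes did. The LIN28A-OE cells had also been transduced and selected with puromycin and restarted at passage 1, which cannot be told apart from LIN28A itself. CXCL8 fell from the WT values given above to 1.99, 6.51, 1.84 and 1.01 CPM (8.37-fold, -3.06 ± 0.49, FDR = 0.000158), with replicate 2 the highest. CXCL1 fell to 0.720, 1.98, 0.955 and 0.304 CPM (-1.85 ± 0.45, FDR = 0.00585), and all of its libraries lay below the lowest WT value of 2.12 CPM. CXCL5 fell 2.56-fold, to between 3.38 and 3.95 CPM with no overlap (-1.36 ± 0.16, FDR = 5.32e-06).

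TNFAIP3 measured 36.4, 23.3, 27.5 and 20.4 CPM in WT DU145 and 7.64, 11.01, 6.61 and 5.07 in LIN28A-OE WT (-1.83 ± 0.25, FDR = 2.27e-05). IL32 measured 50.7, 34.1, 35.3 and 44.3 CPM in WT and 29.2, 13.3, 6.46 and 8.41 with LIN28A, where replicate 1 was the highest (-1.51 ± 0.39, FDR = 0.00973). IL6R measured 36.8, 45.2, 32.9 and 40.4 CPM in WT and 59.8, 79.4, 62.5 and 64.7 with LIN28A (0.77 ± 0.17, FDR = 0.00216). In all 3 genes the 2 groups did not overlap. The calls of CXCL1, RELB and IL32 were lost without LIN28A-OE WT replicate 3 or 4 or without WT replicate 1 or 3, among others (FDR 0.0106 to 0.0385), and that of IL6R without LIN28A-OE WT replicate 2 or WT replicate 3 (FDR = 0.0126 and 0.0121). LIN28A-OE WT replicate 1, which stood apart, correlated better with WT DU145 (0.984) than with its own group (0.965). Without it 10 members were called, and without WT DU145 replicate 3, 5 were.

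The response of CCL5 to mutation differed between cells with and without LIN28A. It measured 2.05, 1.57, 3.38 and 1.93 CPM in LIN28A-OE WT, 2.24, 1.69, 2.67 and 1.92 in LIN28A-OE mutant 1 and 2.37, 2.08, 1.51 and 2.02 in LIN28A-OE mutant 2, so these groups overlapped completely. With LIN28A, CCL5 was 8.26-fold higher in WT cells (3.05 ± 0.41, FDR = 1.75e-05) and lower in mutant 1 (-1.45 ± 0.26, FDR = 0.000963) and in mutant 2 (-0.97 ± 0.27, FDR = 0.00829). The call in mutant 2 was lost without replicate 1, 2 or 3 of DU145 mutant 2 or replicate 2, 3 or 4 of LIN28A-OE mutant 2. The mutant effect with LIN28A minus that without it was -4.50 ± 0.49 in mutant 1 (FDR = 1.74e-05) and -4.02 ± 0.50 in mutant 2 (FDR = 7.09e-05). Such a difference was called in 1 of 29 members (3.45%) and in 0.838% of all genes in mutant 1, 0.563% in this direction, and in 0.474% in mutant 2, 0.227% in this direction. Both interactions share the WT groups with and without LIN28A. CCL5 levels are low, and the WT DU145 value of 0.184 to 0.409 CPM rests on 10 counts over the 4 libraries.

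In the mutants, the comparison of cells with and without LIN28A gave calls in 2 members of mutant 1 and 10 of mutant 2, a difference that was not tested. In mutant 1 only CXCL5 (-1.58 ± 0.19, FDR = 1.97e-05) and CCL5 were called, 6.9% of members tested against 3.5% of all genes. In mutant 2, 9 members fell and CCL28 rose, 34.5% against 20% of all genes, of which 8.57% fell. The largest of these decreases were in IL24, from 14.8 ± 6.38 to 1.67 ± 1.90 CPM (-3.12 ± 0.49, FDR = 9.89e-05), IL32 (-2.19 ± 0.42, FDR = 0.000623) and TNFAIP3, from 29.5 ± 5.22 to 6.57 ± 2.87 CPM (-2.18 ± 0.26, FDR = 2.06e-06). TNFAIP3 replicate 2 of LIN28A-OE mutant 2 was the highest of its group at 10.8 CPM but stayed below all 4 libraries without LIN28A.

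Among the NF-kB subunits, RELA, which encodes p65, was called in none of the 9 comparisons of a mutant with WT or of LIN28A overexpression, with log2 differences from -0.39 ± 0.10 (LIN28A in mutant 1, FDR = 0.0203) to 0.48 ± 0.18 (IGROV1 mutant 1, FDR = 0.0459). Its group means ranged from 87.2 ± 5.24 CPM in WT IGROV1 to 144 ± 14.6 CPM in DU145 mutant 2. RELA was lower in WT IGROV1 than in WT DU145 (-0.51 ± 0.13, FDR = 0.00109).

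NFKB1 measured 94.1, 78.7, 75.4 and 72.9 CPM in WT DU145, 45.3, 42.4, 42.1 and 46.3 in mutant 1 and 98.5, 92.9, 97.5 and 108 in mutant 2. Mutant 1 lay well below WT (-0.85 ± 0.13, FDR = 1.22e-05), and mutant 2 overlapped WT and was not called. In LIN28A-OE cells NFKB1 measured 60.7, 41.9, 42.6 and 51.8 CPM in WT, 38.7, 46.4, 38.1 and 33.5 in mutant 1 and 62.6, 55.6, 59.997 and 56.7 in mutant 2, and neither mutant was called. NFKB1 was lower with LIN28A in WT cells (-0.72 ± 0.13, FDR = 0.000278) and in mutant 2 (-0.80 ± 0.13, FDR = 6.88e-05).

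NFKB2, which encodes the p100 precursor of p52 in the noncanonical pathway, measured 117, 107, 101 and 104 CPM in WT DU145, 155, 170, 181 and 204 in mutant 1 and 126, 125, 123 and 158.01 in mutant 2. It was higher in mutant 1 (0.74 ± 0.15, FDR = 0.000297), opposite to NFKB1. The DU145 clones overlapped in NFKB2, and its call between them was lost without mutant 1 replicate 4 or mutant 2 replicate 1, 2 or 3. In LIN28A-OE cells it measured 127, 105, 78.9 and 83.0 CPM in WT, 160, 144, 169 and 139 in mutant 1 and 84.7, 81.8, 79.0 and 63.9 in mutant 2. The increase in LIN28A-OE mutant 1 (0.59 ± 0.14, FDR = 0.00203) was lost without WT replicate 3 or 4 (FDR = 0.0122 and 0.0115), and the decrease in mutant 2 (-0.50 ± 0.15, FDR = 0.00853) was lost without any of 6 single libraries, WT replicates 1 and 2 and all 4 of mutant 2 (FDR 0.0143 to 0.0533). That decrease was lost as well with total counts in place of TMM scaling (FDR = 0.0409). It was also lost with the replicate number as a block (-0.50 ± 0.15, FDR = 0.0102). The same-numbered libraries of these 2 groups all correlated above 0.1.

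RELB, the partner of p52, was called in none of the 6 mutant comparisons and was lower with LIN28A in WT cells and in mutant 2. It measured 34.2, 33.0, 35.2 and 30.3 CPM in WT DU145 and 21.9, 20.3, 19.7 and 18.3 in LIN28A-OE WT (-0.74 ± 0.17, FDR = 0.00331). In mutant 2 it went from 42.8, 40.5, 42.9 and 56.3 CPM to 17.8, 17.99, 15.7 and 11.8 CPM (-1.56 ± 0.17, FDR = 8.74e-07), and in both cases the groups with and without LIN28A did not overlap. NFKBIA, the canonical inhibitor, was called in none of the 9 comparisons, with differences between -0.15 ± 0.15 and 0.31 ± 0.15.

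**Figure D5:**
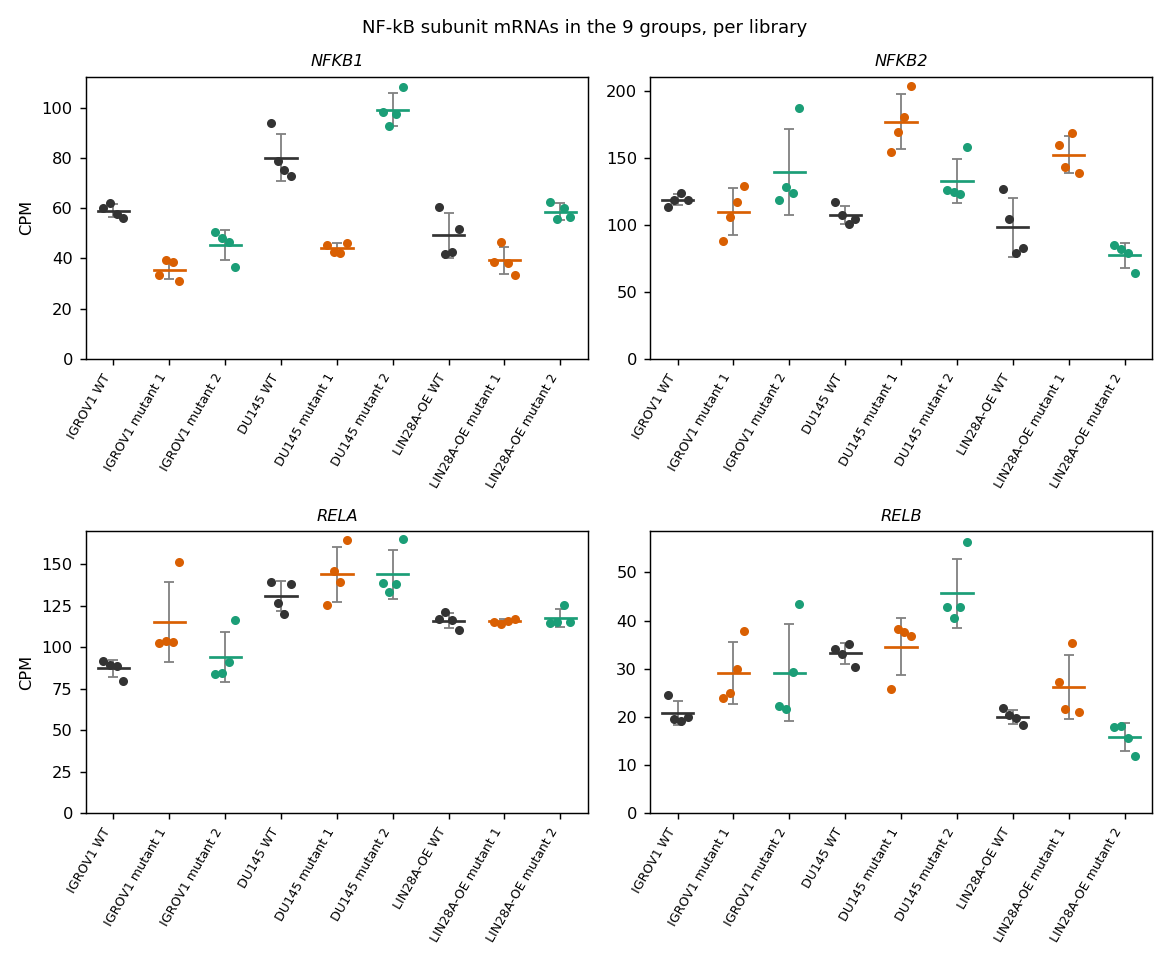
CPM of the NF-kB subunit genes NFKB1, NFKB2, RELA and RELB in the 4 libraries of each of the 9 groups, with the mean and SD of 4 libraries. NFKB1 is lowest in the mutant 1 groups of each background, RELA means lie between 87.2 and 144 CPM, and RELB is lower in the LIN28A-OE groups of WT and mutant 2 than without LIN28A.

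The mean difference of the 2 mutants from WT differed between the cell lines for 8 of 30 members, 26.7% against 24.1% of all genes. Only 20 members had enough counts within each line, and the others passed the filter through 1 line. The share is therefore a description only. Of the 8 called, all but CXCL8 were tested within both lines. The test took the mean mutant effect in DU145 minus that in IGROV1. Its error comes from libraries within each clone, so the spread between clones does not enter the FDRs. The difference was 8.07 ± 0.24 for IL18 (FDR = 3.32e-23), 5.15 ± 0.27 for IL6R (FDR = 3.83e-17) and 2.94 ± 0.37 for BIRC3 (FDR = 9.41e-08), all of which fell in the IGROV1 mutants. LIF (1.37 ± 0.33, FDR = 0.00131) and NFKBIZ (1.12 ± 0.32, FDR = 0.0058) differed in the same direction. CXCL16, CSF1 and CXCL8 differed the other way, by -0.91 ± 0.22 (FDR = 0.00125), -0.73 ± 0.20 (FDR = 0.00357) and -3.45 ± 1.04 (FDR = 0.00958). For CSF1 the IGROV1 mean joins opposite changes, -0.71 in mutant 1 and 0.66 in mutant 2. In IGROV1 NFKBIZ was called in mutant 1 but not in mutant 2 (FDR = 0.0201). The value for CXCL8 rests on 6 counts in WT IGROV1 and was lost without most single libraries. Without replicate 2 of either WT group 5 members remained, those of CSF1, CXCL8 and NFKBIZ being lost.

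Of the 36 genes of signalling upstream of NF-kB, the same calls in both mutants were few in each background. In IGROV1 MYD88, the adaptor of IL-1, IL-18 and Toll-like receptors, fell from 8.39 to 0.363 and 0.387 CPM (-4.49 ± 0.23, FDR = 1.05e-08, and -4.50 ± 0.22, FDR = 5.78e-09), as did the scaffold CARD10 (-1.54 and -0.71) and the IκB-like BCL3 (-1.46 and -0.61), while CYLD, a deubiquitinase that restrains NF-kB, rose by 0.66 and 0.65. IKBKB also rose in both, so that 3 of the 35 genes tested fell and 2 rose in both mutants, where 8.89% of all genes fell and 6.55% rose in both. TRAF1, itself an NF-kB target, rose in both mutants of DU145 (0.78 and 1.14) and of LIN28A-OE DU145 (0.64 and 0.73). IKBKB fell in both LIN28A-OE DU145 mutants, opposite to IGROV1. In all, 2 genes rose and none fell in both DU145 mutants, and 1 rose and 1 fell in both LIN28A-OE mutants. Of all genes, 6.48% and 6.28% were called the same way in both. Per comparison, 6 to 14 of 35 or 36 genes tested were called, 16.7% to 38.9%, where 23.8% to 28% of all genes were, with medians between -0.12 and 0.14.

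Of the 37 receptors for these ligands and Toll-like receptors, 19 could be tested in IGROV1, where 4 fell and 2 rose in both mutants, as 8.89% and 6.55% of all genes did. The accessory chain IL1RAP (-2.63 ± 0.25 and -3.10 ± 0.25), IL15RA (-1.69 ± 0.24 and -1.76 ± 0.22) and CSF2RA (-4.07 ± 0.39 and -2.84 ± 0.31) fell, whereas the decoy receptor IL1R2 rose by 2.65 ± 0.27 and 2.15 ± 0.26, from 9.44 to 56.9 and 43.0 CPM. In the 13 genes of the JAK-STAT3 pathway, STAT3 rose by 0.99 ± 0.13 and 1.00 ± 0.13 and its feedback inhibitor SOCS3 by 1.06 ± 0.16 and 1.43 ± 0.16 in the IGROV1 mutants, and the ligand CLCF1 fell (-0.87 and -1.84). Of the 11 genes tested, 2 rose and 1 fell in mutant 1 (27.3% against 27.6% of all genes, median 0.18), and 6 rose and 1 fell in mutant 2 (63.6% against 27.4%, median 0.63). No gene of the JAK-STAT3 list was called the same way in both mutants of DU145 or of LIN28A-OE DU145, where 6.48% and 6.28% of all genes were. In DU145 the TNF receptor TNFRSF1B rose by 1.03 ± 0.24 and 1.85 ± 0.23.

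Among 23 further NF-kB-induced genes, the acute-phase gene SAA1 fell (-2.97 and -1.57) and the complement gene C3 and the chemokine CX3CL1 rose (2.17 and 1.63, and 1.498 and 2.26) in the IGROV1 mutants. Of the 23 listed, 1 thus fell and 2 rose in both, where 8.89% of all genes tested fell and 6.55% rose in both. C3 moved oppositely in the DU145 clones, 1.41 ± 0.26 in mutant 1 and -1.62 ± 0.28 in mutant 2. Of the 12 factors that control cytokine mRNA decay and stability, ZFP36L1 (-1.56 and -1.24), ZC3H12A (-0.77 and -1.22) and ZFP36L2 (-0.89 and -0.45) fell in both IGROV1 mutants, as 8.89% of all genes tested did. None was called the same way in both mutants of DU145 or of LIN28A-OE DU145, where only 6.48% and 6.28% of all genes were. A list of 12 is too short to tell none from such shares.

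Small RNA libraries of the same groups, with 5703566 to 13957450 reads assigned to microRNAs, gave a second readout on 6 microRNAs known to be induced by NF-kB or STAT3 or to target their pathways. The mature sequences of those that the results turn on are given from RefSeq (GRCh38.p14) with the seed, bases 2 to 8, in capitals, and miR-146a-5p and miR-146b-5p share theirs. The small RNA libraries labelled LIN28A-OE WT replicate 2 and LIN28A-OE mutant 1 replicate 2 each correlated best with another TUT4/7 genotype than their own (0.992 against 0.971 and 0.985 against 0.953). None of the other 34 small RNA and none of the 36 mRNA libraries did so, but LIN28A status was not part of this check. The mRNA library LIN28A-OE WT replicate 1 correlated best with WT DU145 (0.984 against 0.965 with its own group). Small RNA replicates 1, 3 and 4 of LIN28A-OE mutant 1 correlated best with DU145 mutant 1. The 2 small RNA libraries closest to another TUT4/7 genotype share a fit with all DU145 libraries. Values without both, a choice made after seeing the data, are therefore given as well.
hsa-miR-146a-5p: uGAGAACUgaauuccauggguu
hsa-miR-146b-5p: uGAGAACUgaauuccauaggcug
hsa-miR-155-5p: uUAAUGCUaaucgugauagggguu
hsa-miR-21-5p: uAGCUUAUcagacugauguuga
hsa-miR-132-3p: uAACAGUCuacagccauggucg
miR-146a-5p (chr5:160485372-160485393), which NF-kB induces and which represses TRAF6 and IRAK1, measured 458, 319, 208 and 153 RPM (reads per 1000000 microRNA reads) in WT IGROV1. It measured 7.32, 7.71, 7.96 and 8.07 RPM in mutant 1 and 5.49, 3.33, 4.53 and 5.62 in mutant 2, far below every WT library (33.9-fold, -5.08 ± 0.30, FDR = 2.07e-10, and 59.3-fold, -5.89 ± 0.32, FDR = 6.43e-11). miR-146b-5p, which has the same seed but comes from chromosome 10, rose in the same libraries from 122, 123, 125 and 127 RPM to 167 to 196 RPM in mutant 1 and 196 to 248 RPM in mutant 2 (0.62 ± 0.11, FDR = 8.11e-05, and 0.83 ± 0.11, FDR = 2.6e-06).

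miR-21-5p, a STAT3-induced microRNA, fell in the IGROV1 mutants (-2.39 ± 0.08 and -0.94 ± 0.08), and miR-132-3p rose by 1.17 ± 0.12 and 1.13 ± 0.12. Of the 5 listed microRNAs tested in IGROV1, 4 were called the same way in both mutants, as were 35.8% of all 678 microRNAs, where 51.9% were called in mutant 1 and 54.7% in mutant 2. The other, miR-9-5p, fell in mutant 1 and rose in mutant 2, with means of 785 RPM in WT, 479 in mutant 1 and 1365 in mutant 2. In DU145 mutant 1 miR-146a-5p fell from 15.4, 13.2, 10.97 and 12.1 RPM to 5.72, 3.09, 4.18 and 3.87 RPM (-1.41 ± 0.34, FDR = 0.003) and miR-132-3p rose (1.65 ± 0.33, FDR = 0.000711), where 23.7% of 730 microRNAs were called. In DU145 mutant 2 miR-155-5p fell from 893, 538, 481 and 467 RPM to 268, 311, 281 and 361 RPM (-1.26 ± 0.22, FDR = 0.00013), against 15.3% of all microRNAs. In LIN28A-OE WT cells miR-155-5p was lower than in WT DU145, at 181, 150, 86.3 and 87.7 RPM (-2.19 ± 0.23, FDR = 1.77e-07) as was miR-146a-5p, at 5.25, 3.30, 4.36 and 2.41 RPM (-1.71 ± 0.34, FDR = 0.000916), against 7.26% of all microRNAs. Without the 2 libraries these differences were -2.37 ± 0.19 (FDR = 5.73e-11) and -1.69 ± 0.29 (FDR = 6.5e-05). Without them miR-146b-5p also fell (-0.81 ± 0.22, FDR = 0.0047) and miR-9-5p rose (0.53 ± 0.10, FDR = 6.09e-05) in DU145 mutant 1, and miR-132-3p rose in mutant 2 (0.72 ± 0.15, FDR = 0.000457).

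In the LIN28A-OE mutants none of the 6 microRNAs was called, against 0% of all microRNAs in mutant 1 and 11% in mutant 2. No microRNA of 730 was called in LIN28A-OE mutant 1 (150 at an unadjusted p under 0.05, and none of 1896 by DESeq2). Without the 2 libraries that went against their labels 33.8% of 766 microRNAs were called, and miR-132-3p (1.42 ± 0.18, FDR = 2.56e-07), miR-9-5p (0.63 ± 0.11, FDR = 4.74e-05) and miR-155-5p (0.62 ± 0.19, FDR = 0.00798) rose and miR-146b-5p fell (-1.10 ± 0.26, FDR = 0.00148).

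The remaining 10 members did not pass the low-count filter in the edgeR fits with all libraries. These were the IL-1 family genes IL1A, IL1B and IL1RN, the cytokines IL7, CSF2 and CSF3, the chemokines CXCL6, CXCL10 and CCL2, and PTGS2, the inducible cyclooxygenase. Their highest values in any library lay between 0.0967 CPM for CSF3 and 1.63 CPM for IL1RN, and they had counts in 5 (CSF3) to 26 (PTGS2) of the 36 libraries. IL1A measured 0.414, 0.652, 0.599 and 0.880 CPM in WT IGROV1, and the 8 mutant libraries held it at 0 to 0.0798 CPM. IL7 was likewise present in all 4 WT IGROV1 libraries (0.133 to 0.362 CPM) and had no count in mutant 2, where it was at least 6.59-fold lower, as it had none in DU145 mutant 2, at least 7.27-fold below WT DU145. CXCL10, an interferon-inducible chemokine, went the other way, with counts in 1 WT and all 4 mutant 2 libraries of IGROV1 (0.303 to 0.602 CPM). With both clones pooled as 1 group, DESeq2, which was run without that filter, called IL1A (log2 -4.31, FDR = 3.18e-06), IL7 (-4.05, FDR = 0.00111) and CXCL10 (4.11, FDR = 0.00293) in IGROV1. That fit also called CXCL1 (-4.64, FDR = 0.000111), which edgeR did not test within IGROV1. CXCL1 had 22 counts over the WT IGROV1 libraries and 0 in each mutant, at least 5.59-fold and 7.63-fold lower. Pooling treats the libraries of 2 clones as replicates of 1 group, so these FDRs do not measure the spread between clones. IL1A also passed the edgeR filter and was called when single libraries, such as WT replicate 1, were left out.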

How the data were processed

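Poly(A) RNA (directional libraries) and small RNA were sequenced from 9 groups of 4 libraries. Per the labels and the submitters' processing notes, the authors trimmed mRNA reads with Trimmomatic 0.39, aligned them to hg38 with HISAT2 2.1.0 and deposited raw HTSeq read counts per gene for each library. The annotation and strand setting of the counting are not given in the sources used here, so overlapping and antisense genes may share reads. For small RNA the authors deposited a table of miRDeep2 read counts per microRNA, of which the precursor copy with the highest total was used for each mature microRNA, and the table's normalized columns were not used.

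Samples were grouped by their GEO labels. Summary entries that name no gene (21.9 to 30.1% of each file) were left out. Counts were tested with edgeR 4.0.16 in R 4.3.3 (filterByExpr, TMM scaling, robust quasi-likelihood F test), with Benjamini-Hochberg adjustment over all genes tested and a false discovery rate threshold of 0.01. One fit held the 12 IGROV1 libraries (13932 genes), another the 24 DU145 libraries (14561 genes) and the last, for comparisons between the lines, all 36 (15556 genes). The standard error is the absolute log2 difference divided by the square root of F. CPM were computed per library from the counts assigned to genes, RPM from the counts of all microRNAs. The study's own test was DESeq2, run here as an alternative (DESeq2 1.42.0), as were total-count scaling, no low-count filter, the replicate number as a block, other sets of libraries fitted together, a threshold of 0.05 and each library left out in turn. The replicate numbers paired the libraries (every same-numbered correlation of deviations from the group means above 0.1) in 3 of 18 pairs of groups, and the labels give no shared day or batch. In data simulated for IGROV1 mutant 1 against WT over 13593 genes the test recovered 99 of 100 genes changed 2-fold and 100 of 100 changed 4-fold. Only genes with many counts were changed, every gene had the same spread between libraries, and no library deviated from its group. The recovery therefore does not apply to members with few counts or to groups with a deviating library.

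Values per library were given for the called members with the largest mean absolute log2 difference in each background, at most 8 (for mutants, those called the same way in both), and for the NF-kB subunits. From every other list at most 4 genes called the same way in both mutants were named. Other genes were singled out after their values were seen, and the members and lists were chosen with earlier results of these data known. A group without counts was set to a floor of 3 counts over the group. Floors and intervals cover counting error only. Promoter and microRNA sequences are from RefSeq (GRCh38.p14), with 30 of 40 members matched to a promoter window, and hg38 gene coordinates are from GENCODE.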

Additional observations from a re-analysis of the deposited data

Results flagged for a closer look

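The mean effect of the 2 mutants differed between DU145 and IGROV1, by an interaction test in edgeR, for 8 of 30 members, 26.7% against 24.1% of all genes. Only 20 members had enough counts within each line, so this share is a description only. The spread between clones does not enter these FDRs. The difference, DU145 minus IGROV1 on the log2 scale, was 8.07 for IL18 (FDR = 3.32e-23), 5.15 for IL6R (FDR = 3.83e-17), 2.94 for BIRC3 (FDR = 9.41e-08), 1.37 for LIF (FDR = 0.00131) and 1.12 for NFKBIZ (FDR = 0.0058). It was -0.91 for CXCL16 (FDR = 0.00125), -0.73 for CSF1 (FDR = 0.00357) and -3.45 for CXCL8 (FDR = 0.00958), which rests on 6 counts in WT IGROV1 and was lost without most single libraries. The effect on CCL5 differed with LIN28A by -4.50 in mutant 1 (FDR = 1.74e-05) and by -4.02 in mutant 2 (FDR = 7.09e-05).

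A single library stood far from the other 3 of its group in 11 of 137 groups checked by Dixon's test, 8.03%, where chance gives about 1 in 20. Of the NF-kB subunits, NFKB2 reached 158.01 CPM in a DU145 mutant 2 library (next 126) and 188 in an IGROV1 mutant 2 library (next 128). RELA reached 166 CPM in DU145 mutant 2 (next 139), 151 in IGROV1 mutant 1 (next 104) and 125 in LIN28A-OE mutant 2 (next 115). RELB reached 56.3 CPM in DU145 mutant 2 (next 42.9) and was lowest at 25.8 in DU145 mutant 1 (next 36.7). BIRC3 reached 155 CPM in a WT DU145 library (next 95.9), LIF 91.9 CPM in a LIN28A-OE WT library (next 36.4) and TNFAIP3 10.8 CPM in LIN28A-OE mutant 2 (next 5.72). CXCL5 was at 0.0518 CPM in 1 WT IGROV1 library and at 0 in the others.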

How the results depend on the processing

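No call reversed. DESeq2 kept 81 of 81 single-gene and single-microRNA calls, the replicate block 80, total-count scaling 76 and no low-count filter 76. Of 66 calls, 60 were kept with another set of libraries fitted together, where IL32 and TNFAIP3 in IGROV1 mutant 2, CCL28 in mutant 1 with and without LIN28A, NFKB2 in LIN28A-OE mutant 2 and RELB were lost, and 55 and 59 at the highest and lowest log2 change over the libraries left out. Within replicates 1 and 2 and within 3 and 4 the 66 differences kept their sign, which is no independent support since the same libraries made the calls. Low levels limit what could be seen, and 10 members did not pass the count filter.

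Members called rose with DESeq2 from 10 to 16 in IGROV1 mutant 2, from 5 to 8 in DU145 mutant 2, from 2 to 4 for LIN28A in mutant 1 and from 6 to 10 in both IGROV1 mutants. With the clones pooled as 1 group, DESeq2 called 12 in IGROV1 and 5 (from 3) in DU145, where CXCL5 was lost (FDR = 0.305), and 2 (from 3) in LIN28A-OE DU145, where CXCL5 was lost too (FDR = 0.0181). At an FDR of 0.05 they rose from 5 to 12 in DU145 mutant 2, from 5 to 8 in LIN28A-OE mutant 2, from 2 to 4 for LIN28A in mutant 1, from 10 to 17 for LIN28A in mutant 2 and from 1 to 2 for the mutant 1 effect across LIN28A. Total counts gave 3 in LIN28A-OE mutant 2. Total counts also moved the median of all genes to 0.11 in DU145 mutant 2 and 0.14 in LIN28A-OE mutant 2, and the share of higher calls from 45.6% to 64.6% and from 47.7% to 69.1%. It moved that share from 53.5% to 37.5% and from 49.5% to 38.1% between the clones of DU145 and of LIN28A-OE DU145 (medians of -0.12 and -0.10), and from 32.8% to 42.9% for the mutant 1 effect across LIN28A.

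With each library left out in turn, the counts ranged from 6 to 10 in IGROV1 mutant 2 (lowest without WT replicate 3 or 4), from 3 to 6 in LIN28A-OE mutant 2 (lowest without WT replicate 2 or mutant 2 replicate 3 or 4), from 5 to 10 for LIN28A in WT cells (lowest without DU145 WT replicate 3), from 5 to 8 for DU145 minus IGROV1 (lowest without replicate 2 of either WT), from 1 to 2 for the mutant 1 effect across LIN28A (2 without LIN28A-OE WT replicate 1, adding IL32) and from 0 to 1 for the LIN28A-OE microRNAs. Without replicate 4 of both mutants, chosen after seeing the data, IGROV1 mutant 1 had 14 calls (from 8, with 44.6% of all genes called) and the IGROV1 clones differed in 9 (from 4, with 32.3% of all genes called). Without replicate 2 of LIN28A-OE WT and mutant 1, also chosen after seeing the data, microRNA calls rose from 3 to 6 in DU145 and from 0 to 4 in LIN28A-OE DU145. The cause of each change was not tested.

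The replicate number as a block gave 10 calls in DU145 mutant 2 (from 5) and 2 (from 1) for each effect across LIN28A. Of 72 same-numbered pairs of libraries 37 correlated above 0.1 (range -0.462 to 0.9), and 19 of 36 libraries were closest to their own number. All 4 pairs passed 0.1 in 3 of 18 pairs of groups (LIN28A-OE WT with mutant 2, and the clones of IGROV1 and of DU145). There the block ended the NFKB2 call and added IL6R in LIN28A-OE mutant 2 (-0.44, FDR = 0.00547), added CXCL1 between the DU145 clones (-2.16, FDR = 0.0039) and changed no other member's call. Elsewhere the numbers are only names, and the block there added, among others, IL6R to both LIN28A interactions (FDR = 0.00398 and 0.00761).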
